A study of Mus musculus with 3 samples.

Results

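The genes described here encode neurotransmitter receptors and transporters, a set of 116 among the 21887 mouse genes listed as protein-coding on the autosomes, X and Y. They were taken by symbol and cover GABA-A, glutamate, glycine, acetylcholine, serotonin and dopamine receptors and the Slc6, Slc17 and Slc32 transporters. EZH2, the methyltransferase within polycomb repressive complex 2 (PRC2), was mapped by chromatin immunoprecipitation and sequencing in bone marrow-derived macrophages of C57BL/6 mice. The cells were grown from marrow of femurs and tibias of adult mice with medium containing M-CSF, and no allele or transgene is named for any sample. Of the 3 samples, 1 EZH2 library came from untreated cells (NT), 1 EZH2 library from cells given lipopolysaccharide (LPS) for 2 h, and 1 was input DNA whose condition is not given and which was not analysed here. With 1 library per condition no difference below has a replicate check and no test between conditions was made.

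The deposited tracks list enriched intervals and, for each interval, the position and value of its summit. The summit value is a whole number whose unit, depth and scaling between libraries are not given in the sources used here. NT had 9643 intervals with summit values of 11 to 253 (median 27), and LPS had 4651 with values of 7 to 100 (median 16). The lists were thus of unequal length and scale, and a change in EZH2 binding cannot be told apart from a change in either. The stimulated track is named TLR and was assigned to the LPS sample as the only stimulated EZH2 sample in the labels. A gene was counted when an interval came within 2.5 kb of either end of the gene, and its value is the highest summit value among those intervals.

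PRC2 methylates lysine 27 of histone H3, and its known targets in most cell types are developmental and tissue-specific genes that are silent, mostly at promoters rich in CpG dinucleotides. Receptors for glutamate and acetylcholine fall into ligand-gated ion channels and G protein-coupled receptors, while GABA-A and glycine receptors are chloride channels that carry fast inhibition. Transporters of the Slc6 family take transmitters and amino acids up into cells, and Slc17 and Slc32 proteins include those that load transmitters into synaptic vesicles. Most of these genes are known for their use in neurons, although macrophages are known to carry some of the receptors. No expression was measured in this study.

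An interval was found in NT at 39 of the 116 genes (33.6%, 95% Wilson interval 25.7 to 42.6%), where 38.2% of all protein-coding genes had one. In LPS it was found at 27 genes (23.3%, 16.5 to 31.7%), where 16.2% of all genes had one. Both libraries had an interval at 26 genes (22.4% against 15.6%), NT alone at 13 (11.2% against 22.6%) and LPS alone at 1 (0.862% against 0.535%). The remaining 76 genes (65.5%) had none. The Wilson intervals cover counting error only, and neighbouring genes can share an interval. The set was thus near the genome share in NT. In LPS its share was the higher of the pair.

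The families differed in how many of their genes carried intervals, but most families are small. No family was tested against the 38.2% of all protein-coding genes with an NT interval. Of 7 NMDA receptor genes 4 had one in NT, as did 3 of 5 kainate receptor genes, 4 of 8 metabotropic glutamate receptor genes, 7 of 14 serotonin receptor genes and 9 of 19 Slc6 transporter genes. Among the 19 GABA-A receptor genes none did, and the same was true of the 4 glycine receptor genes. Nicotinic receptor genes had an NT interval at 4 of 16, muscarinic and dopamine receptor genes at 2 of 5 each, Slc17 transporter genes at 2 of 9 and AMPA receptor genes at 1 of 4.

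**Figure D1:**
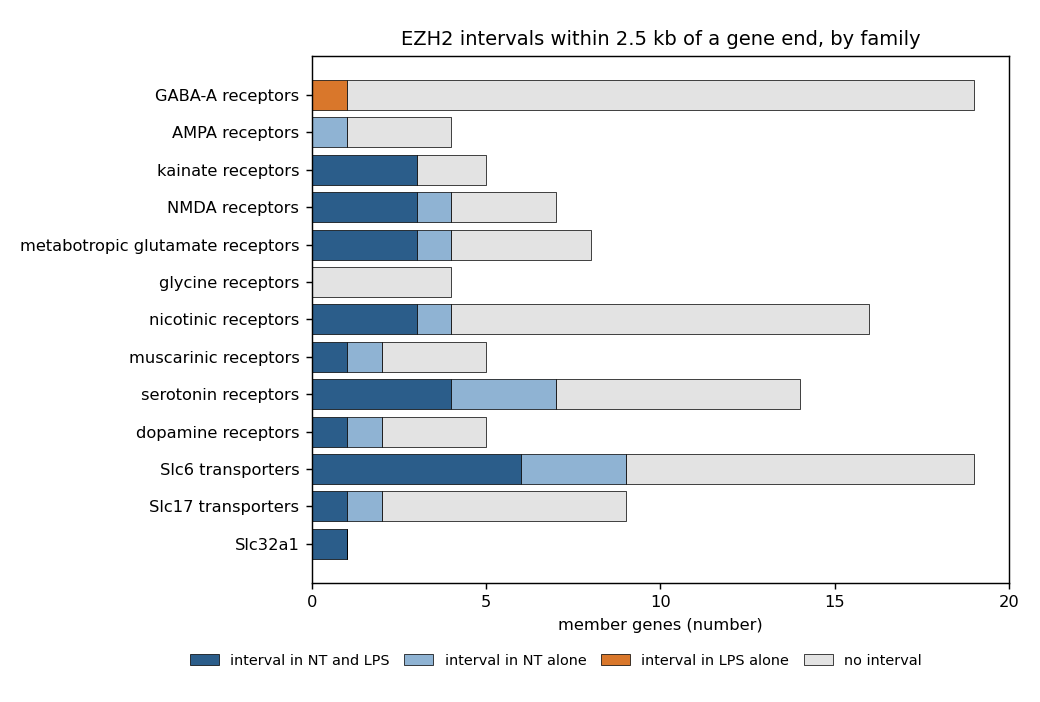
Number of genes (x axis) in each of 13 families (y axis) with an EZH2 interval within 2.5 kb of a gene end in both libraries, in NT alone, in LPS alone or in neither. The GABA-A receptor bar has 18 of 19 genes without an interval, and the Slc6 bar of the same length has 9 genes with one in NT.

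The promoters under the highest intervals are shown with a pair of promoters that had no interval, to let the letters be compared. Each is the 300 bases from 250 before to 50 after a RefSeq start site (GRCm38.p6, the assembly of mm10), printed 5′ to 3′ on the strand of the gene in lower case, with every CG dinucleotide in capitals. The first 4 are the members with the highest NT summit value among intervals that lay over a listed promoter, and the last 2 are the first by symbol with a listed promoter and no interval in the 2 largest families.
Slc32a1, chr2:158610508-158610807, plus strand, summit values 98 in NT and 53 in LPS: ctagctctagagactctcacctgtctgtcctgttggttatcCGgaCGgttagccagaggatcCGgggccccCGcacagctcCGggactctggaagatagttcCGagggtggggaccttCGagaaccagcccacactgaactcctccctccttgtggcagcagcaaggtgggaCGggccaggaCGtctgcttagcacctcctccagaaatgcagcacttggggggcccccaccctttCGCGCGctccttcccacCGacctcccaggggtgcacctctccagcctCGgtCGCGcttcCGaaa
Grin2c, chr11:115267194-115267493, minus strand, 81 in NT and 45 in LPS: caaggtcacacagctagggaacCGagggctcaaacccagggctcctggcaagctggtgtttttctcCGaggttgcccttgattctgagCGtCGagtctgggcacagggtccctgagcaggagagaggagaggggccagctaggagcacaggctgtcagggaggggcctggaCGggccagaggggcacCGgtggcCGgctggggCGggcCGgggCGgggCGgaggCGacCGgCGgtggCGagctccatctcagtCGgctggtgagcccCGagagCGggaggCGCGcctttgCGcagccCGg
Chrm4, chr2:91921939-91922238, plus strand, 71 in NT and 26 in LPS: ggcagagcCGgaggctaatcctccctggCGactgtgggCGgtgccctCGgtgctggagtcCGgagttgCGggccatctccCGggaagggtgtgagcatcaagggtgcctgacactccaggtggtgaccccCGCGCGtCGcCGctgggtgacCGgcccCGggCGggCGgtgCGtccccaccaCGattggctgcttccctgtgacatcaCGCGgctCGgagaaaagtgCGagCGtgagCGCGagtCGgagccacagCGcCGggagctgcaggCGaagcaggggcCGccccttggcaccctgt
Htr6, chr4:139075521-139075820, minus strand, 63 in NT and 31 in LPS: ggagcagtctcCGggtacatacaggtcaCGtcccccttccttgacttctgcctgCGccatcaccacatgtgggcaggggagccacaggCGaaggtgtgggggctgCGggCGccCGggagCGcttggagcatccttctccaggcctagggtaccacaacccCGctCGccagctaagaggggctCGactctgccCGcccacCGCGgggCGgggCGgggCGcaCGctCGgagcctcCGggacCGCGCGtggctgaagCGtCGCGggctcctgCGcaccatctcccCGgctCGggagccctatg
Gabra2, chr5:71095800-71096099, minus strand, no interval: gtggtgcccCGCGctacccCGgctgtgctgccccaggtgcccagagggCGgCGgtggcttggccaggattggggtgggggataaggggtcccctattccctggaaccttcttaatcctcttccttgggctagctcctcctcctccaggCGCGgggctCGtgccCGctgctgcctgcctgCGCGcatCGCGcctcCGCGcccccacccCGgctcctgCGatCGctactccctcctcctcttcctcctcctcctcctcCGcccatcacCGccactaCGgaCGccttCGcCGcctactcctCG
Slc6a11, chr6:114130991-114131290, plus strand, no interval: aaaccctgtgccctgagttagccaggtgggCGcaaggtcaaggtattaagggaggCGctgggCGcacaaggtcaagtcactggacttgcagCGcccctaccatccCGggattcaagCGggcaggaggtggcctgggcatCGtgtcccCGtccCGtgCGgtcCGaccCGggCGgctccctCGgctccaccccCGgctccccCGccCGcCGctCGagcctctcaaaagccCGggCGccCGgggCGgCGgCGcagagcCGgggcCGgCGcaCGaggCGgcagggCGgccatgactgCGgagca
The capitals do not separate these promoters by their intervals, but the pair without an interval is not typical. The 54 listed member promoters without an NT interval had a median of 8 CG dinucleotides, against 18 at the 31 under one. Slc32a1 held 17 CG dinucleotides, Grin2c 22, Chrm4 30 and Htr6 29, while Gabra2 held 25 and Slc6a11 held 32. Observed over expected CpG was 0.574 at Slc32a1, 0.629 at Grin2c, 0.807 at Chrm4 and 0.767 at Htr6, and 0.721 and 0.815 at the promoters of Gabra2 and Slc6a11.

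Among the genes of ionotropic glutamate receptors, the NMDA subunits had the highest values. Grin2d, which encodes a glutamate-binding subunit, had 97 in NT and 55 in LPS, and Grin2c, which encodes another, had 81 and 45. Grin1, which encodes the subunit that every NMDA receptor contains, had 59 in NT and 30 in LPS. Grin3b, which encodes a glycine-binding subunit, had 32 in NT and no LPS interval. The NT interval at Grin3b, chr10:79970068-79974927, covered 66.7% of the gene and also reached the end windows of Wdr18 and Tmem259. Grin2a, Grin2b and Grin3a had no interval in either library.

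At Grin2d, Grin1 and Grin2c the intervals lay mostly at both ends of the gene. At Grin2d the highest interval lay at the 3′ end (chr7:45830346-45835097 in NT, chr7:45831121-45835369 in LPS), and both libraries had their summit at the same position, 45833313. The 5′ end of Grin2d had 45 in NT and 26 in LPS. At Grin1 the 3′ interval had 59 and 30, and the interval over the promoter had 28 and 15. Its 3′ summit was 568 bp from the end of Grin1 and 552 bp from that of Lrrc26 in NT, so that the interval cannot be given to either gene. Grin2c had the opposite order, with 81 and 45 at the 5′ end and 51 and 20 at the 3′ end. In these 3 genes the middle held weaker intervals found in 1 library, which were 25 at Grin1 and 21 at Grin2d in NT and 16 at Grin2c in LPS.

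Kainate receptor genes with an interval had it in both libraries. Grik5, which encodes a high-affinity subunit, had 50 in NT and 24 in LPS, and Grik4, its close relative, had 49 and 32. Grik3 had 36 and 17 and a second interval of 30 and 15 on the other side of its start site. The values of Grik5 came from different places. Its interval over the promoter had 50 in NT and 19 in LPS, while its 3′ interval had 34 and 24, so that the strongest place of Grik5 was the promoter in NT and the 3′ end in LPS. Grik1 and Grik2 had no interval. Of the AMPA receptor genes, Gria3 had 17 in NT alone, near the lowest value in the NT list, and Gria1, Gria2 and Gria4 had none.

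Metabotropic glutamate receptor genes held the highest value of the whole set. Grm4, which encodes a presynaptic receptor that lowers transmitter release, had 106 in NT, above 98.2% of all genes with an NT interval, and 61 in LPS, above 97.5% of those with an LPS interval. Its NT interval, chr17:27509697-27516392, was listed as 2 intervals in LPS, with values of 61 and 34, and the summit at 27512401 was the same in both libraries. Grm8, of the same receptor group, had 51 and 25 at the 5′ end of a gene of 860 kb. Grm6, known for its use in retinal bipolar cells, had 25 and 16, and Grm2 had 24 in NT alone. Grm3, Grm5 and Grm7 had none.

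In NT no gene of the inhibitory GABA-A and glycine receptors had an interval, while the vesicular transporter of the same transmitters carried a wide domain. Slc32a1 loads GABA and glycine into synaptic vesicles. A single NT interval of 9.45 kb, chr2:158608602-158618054, covered 84.2% of the gene with a value of 98, and a single LPS interval of 8.65 kb covered 83.1% with a value of 53. These were the widest intervals of the set in both libraries, and no other protein-coding gene had an end within 2.5 kb of them. Their summits, at 158611169 in NT and 158611073 in LPS, lay 411 and 315 bp from the listed start site.

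Of the 19 GABA-A receptor genes, Gabrd had an LPS interval and no gene of the family had an NT interval. Gabrd encodes the delta subunit of receptors outside synapses. Its LPS interval, chr4:155397265-155398152, had a value of 11, above 8.8% of all genes with an LPS interval. The lowest value was 7 in the LPS list and 11 in the NT list, whose scales may differ. The nearest NT interval was 22.4 kb away. The sources used here do not say what value an NT interval needed to be listed. The other 18 GABA-A genes had no interval at an end or inside the gene in either library. The distance of the family to NT intervals had a median of 592 kb from gene to nearest NT interval over the 19 genes, against 144 kb over the 77 members and 85.1 kb over the 13525 protein-coding genes without an NT interval.

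Many GABA-A genes lie in clusters, so distances of neighbouring subunits are not separate observations. On chromosome 11, Gabra6 and Gabrb2 were 1210 and 895 kb from the nearest NT interval. On chromosome 7, Gabra5 and Gabrg3 were 1360 and 666 kb away. On chromosome 5, Gabrg1, Gabra2 and Gabra4 were 1190, 1070 and 509 kb away, and Gabrb1 at the edge of that cluster was 18.1 kb away. Gabrr1, Gabrp and Gabrr2, at 25.4, 36.7 and 73.2 kb, were also closer than the genome median of 85.1 kb, as was Gabrd. The glycine receptor genes Glra1, Glra2, Glra3 and Glra4 were 43.7, 1050, 420 and 12.1 kb away.

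Among the receptors for acetylcholine, the muscarinic gene Chrm4 had the highest value, with 71 in NT and 26 in LPS. Chrm4 encodes a receptor that inhibits adenylyl cyclase, and its ratio of LPS to NT value, 0.366, was the lowest of the set. Chrm3, which encodes the muscarinic receptor of smooth muscle and glands, had 20 in NT alone, and Chrm1, Chrm2 and Chrm5 had none.

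Nicotinic genes with intervals in both libraries were the 3 of the chromosome 9 cluster, whose subunits form the receptor of autonomic ganglia. The interval over the start of Chrna3, chr9:55024950-55027206 in NT, had 36 and its LPS counterpart 23. It also came within 2.5 kb of the 3′ end of Chrnb4, so both genes were counted with the same values. The start of Chrnb4 itself had an NT interval of 20 and no LPS interval. Chrna5 had 28 in NT, and in LPS it had 2 intervals of 12 and 22. Chrnb2, which encodes the common partner subunit in brain, had 21 in NT alone.

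The remaining 12 nicotinic genes had no interval at an end, and 3 of them lay just past the window. Chrnb1 had values of 57 in NT and 25 in LPS, Chrnd 33 and 22, and Chrna4 40 and 22, all between 2.5 and 5 kb from a gene end. The Chrna4 interval lay inside the gene over its listed start site, because the annotated gene reaches further upstream. With a 5 kb window the family count was 7 of 16 in NT and 6 in LPS. Chrna7, the subunit tied to acetylcholine responses of macrophages, had no interval. On the inner side of the limit, Slc6a5 was counted in LPS through an interval of 12 that lay between 1 and 2.5 kb from an end.

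Among the receptor families, serotonin receptors had the most genes with an NT interval, 7 of 14. Htr6, which encodes a receptor that stimulates adenylyl cyclase, had 63 in NT and 31 in LPS, and Htr7, of the same signalling type, had 60 and 30. The inhibitory receptor genes Htr1d and Htr1b had 40 and 16, and 38 and 20. The interval at Htr1b covered 47.4% of this gene of 5.54 kb in NT and 47.0% in LPS. Htr1f (23), Htr2c (18) and Htr5b (18) had an NT interval alone. Htr1a, Htr2a, Htr2b, Htr3a, Htr3b, Htr4 and Htr5a had none, which includes both genes of the serotonin-gated ion channel.

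Of the dopamine receptor genes, Drd4 had 58 in NT and 29 in LPS over 75.9% and 72.7% of a gene of 4.49 kb. Drd5 had 22 in NT alone. Drd1, Drd2 and Drd3, the main receptors of the striatum, had no interval.

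The transporter genes had lower values than the receptor genes at the top of the set, apart from the vesicular transporters. Slc17a7 loads glutamate into vesicles and had 57 in NT and 45 in LPS, with 3 intervals in each library that covered 55.1% and 50.7% of the gene. The value of 57 lay at the 3′ end, where the summit was 278 bp past Slc17a7 and 68 bp from an end of Gfy. Over the Slc17a7 promoter the values were 28 and 15. The lysosomal transporter gene Slc17a5 had 24 in NT alone. The other 7 Slc17 genes had none, among them the vesicular glutamate transporters Slc17a6 and Slc17a8.

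In the Slc6 family the serotonin transporter gene Slc6a4 was highest, with 48 in NT and 18 in LPS, followed by the glycine transporter gene Slc6a9 with 44 and 26. The other glycine transporter gene, Slc6a5, was lower, with 21 and 12. The value of Slc6a5 is that within the window of its annotated end. A further interval inside the gene, over its second listed start site, had 36 and 16. The proline transporter gene Slc6a7 had 32 and 27, and Slc6a17 of synaptic vesicles 27 and 15. The taurine transporter gene Slc6a6 (27), the creatine transporter gene Slc6a8 (24) and the dopamine transporter gene Slc6a3 (18) had NT intervals alone. No interval was found at Slc6a2, which encodes the noradrenaline transporter, nor at Slc6a11 to Slc6a16, Slc6a18, Slc6a19 and Slc6a21.

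**Figure D2:**
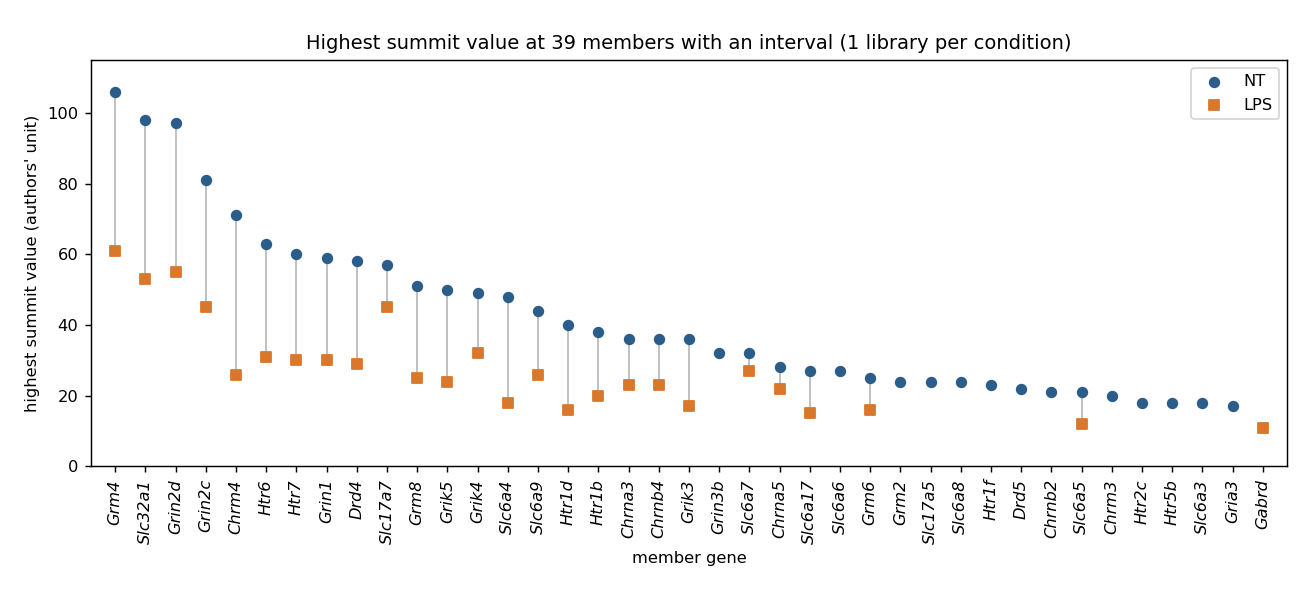
Highest summit value (y axis, the authors' unit) at 39 of the 40 members with an interval (x axis), with circles for NT, squares for LPS and a line joining both values of a gene. Values run from 106 at Grm4 to 17 at Gria3 in NT, and the members with NT alone lie at 32 or below.

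The comparison of NT with LPS asked what 2 h of LPS changed at these genes. Over the 26 members with intervals in both libraries the ratio of LPS to NT value had a median of 0.556, from 0.366 at Chrm4 to 0.844 at Slc6a7, and over the 3419 such genes of the genome the median was 0.491. All 26 ratios were below 1, and a difference in depth or scaling between NT and LPS would enter every one of them. The highest ratios included those of Slc6a7 (0.844), Slc17a7 (0.789), Chrna5 (0.786), Grik4 (0.653) and Grm6 (0.640). The lowest were those of Chrm4 (0.366), Slc6a4 (0.375), Htr1d (0.40), Grik3 (0.472), Grik5 (0.480) and Grm8 (0.490). The Grik5 ratio compares different places, its 3′ end in LPS and its promoter in NT. The error of a single ratio is not known with 1 library per condition.

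**Figure D3:**
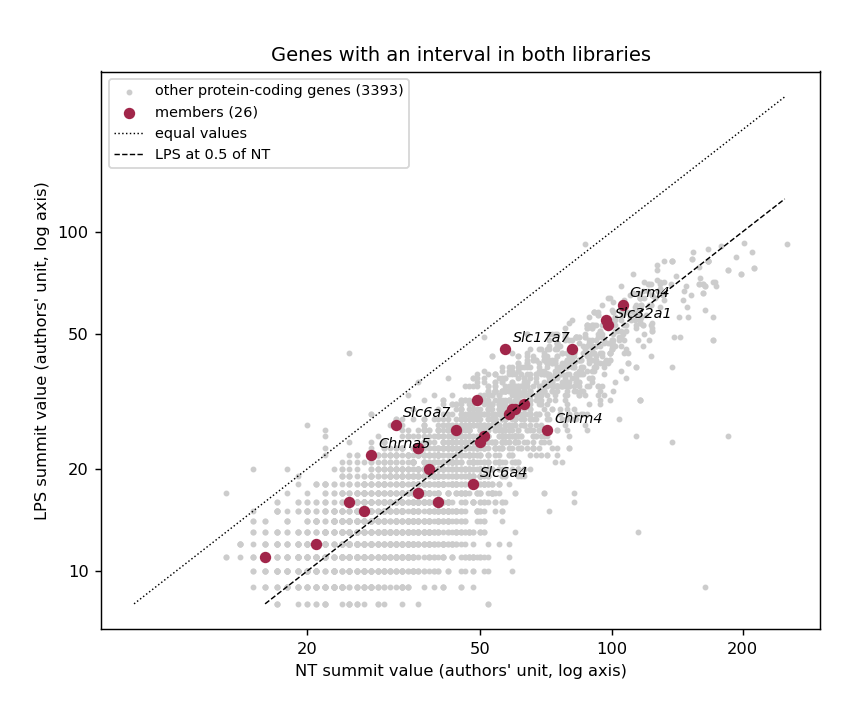
NT (x axis) and LPS (y axis) summit values on log axes, in the authors' unit, for the genes with an interval in both libraries, with 26 members in dark red and all others in grey. All members lie below the dotted line of equal values, with ratios from 0.366 to 0.844 on either side of the dashed line of LPS at 0.5 of NT.

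Among genes with an NT interval, a larger share of members than of all genes also had an LPS interval. Of the 39 members with an NT interval, 26 (66.7%) had one in LPS, against 40.9% of the 8362 genes. The members also had higher NT values, with a median of 36 (quartiles 23.5 and 54) against 28 (22 and 38). Split by NT value, 1 of 6 members up to 20 had an LPS interval, against 12.8% of all genes. From 21 to 30 it was 4 of 11 members (36.4%) against 25.3%, and from 31 to 50 it was 10 of 11 (90.9%) against 55.1%. Above 50 it was 11 of 11 against 96.4%. The member without an LPS interval between 31 and 50 was Grin3b. Chrna3 and Chrnb4 were both counted in that range through the same interval, with 36 in NT and 23 in LPS.

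The 13 members with an interval in NT alone had values of 17 to 32 with a median of 22, near the 24 of all 4943 such genes. The 26 members with both had NT values of 16 to 106 with a median of 48.5, against 39. LPS values at members had a median of 25, against 18 over all genes with an LPS interval.

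Intervals at members were wider than the lists as a whole. Those lists also hold intervals away from gene ends, and no width was taken over the ends of all protein-coding genes. The 53 NT intervals at members had a median width of 2.0 kb (0.658 to 9.45 kb) against 1.3 kb over all NT intervals, and the 37 LPS intervals had 2.27 kb (0.726 to 8.65 kb) against 1.47 kb. Of the NT bases at members 64.4% lay in an LPS interval, against 49.8% of all NT bases. Of the LPS bases 94.8% lay in an NT interval, against 92.6%. The highest summits of both libraries were a median of 128 bp apart over 26 members, and 15 of them were within 200 bp. No such distance is given here for all genes with intervals in both libraries. The widest gap was at Grik5, 62576 bp, where the strongest interval changed from the 5′ to the 3′ end.

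Nearly all members with an interval and a known strand had one at the 5′ end. Strand was known for 32 of the 39 members with an NT interval, and all 32 had an interval in the window of the 5′ end, while 10 had one at the 3′ end. At Grin3b, Slc32a1, Drd4 and Drd5 the same NT interval met both windows. The 3′ interval of Chrnb4 was the one over the start of Chrna3. In LPS 22 of 23 had one at the 5′ end, and the exception was Chrnb4. The highest NT summit lay inside the gene at 35 of 39 members. It was nearer to an end of another protein-coding gene at 4, which were Grin1, Grik5, Slc17a7 and Chrnb4. At 11 of the 39 the highest NT interval also came within 2.5 kb of an end of another protein-coding gene. The shares of all protein-coding genes with these placements were not counted, so the placements cannot be called particular to the members. Beyond the end windows, 5 members had an NT interval inside the gene, where 4.45% of all genes did, and 4 had an LPS interval, where 2.44% did.

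**Figure D4:**
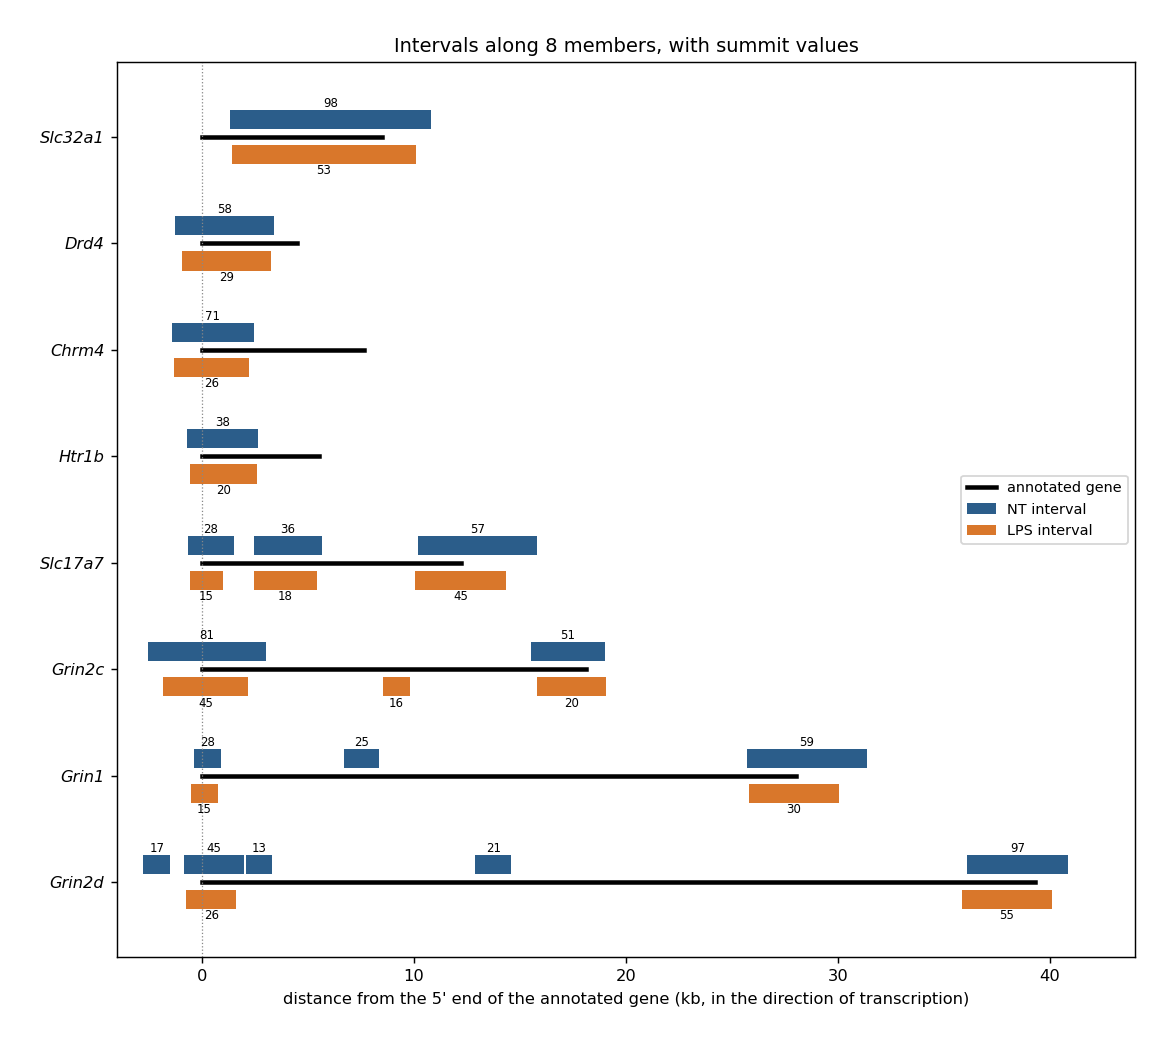
NT (blue) and LPS (orange) intervals along 8 members drawn to scale, with the distance from the 5′ end of the annotated gene in kb on the x axis and summit values as numbers. Intervals cover most of Slc32a1 and Drd4, and lie at both ends of Slc17a7, Grin2c, Grin1 and Grin2d, where the 3′ values of 97 at Grin2d and 59 at Grin1 exceed their 5′ values in NT.

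Promoter sequence was listed for 85 of the 116 members and 17492 of the protein-coding genes, and the most upstream promoter of each was used. A promoter was called CpG-rich with an observed over expected CpG of at least 0.6 and a GC content of at least 55%, in its 300 bases. By this measure 28 of the 85 member promoters were CpG-rich (32.9%), against 41.3% of all. An NT interval lay over 31 of the 85 (36.5%), against 32.6% of all, and an LPS interval over 21 (24.7%), against 12.1%.

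Among CpG-rich promoters, 15 of 28 members had an NT interval (53.6%), against 59.4% of all, and 11 had an LPS interval (39.3%), against 21.1%. Among the other promoters, 16 of 57 members had an NT interval (28.1%), against 13.8% of all, and 10 had an LPS interval (17.5%), against 5.82%. Of the 31 member promoters under an NT interval, 16 thus fell short of the CpG limit, the GC limit or both. The median observed over expected CpG of the 31 was 0.628, from 0.172 at Grin3b to 1.20 at Grin1. Over all promoters under an NT interval it was 0.805. Member promoters without an NT interval had a median of 0.367, against 0.335 over all.

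The GABA-A genes were not all poor in CpG. Of their 15 listed promoters 4 were CpG-rich, those of Gabrb1 (0.805), Gabra2 (0.721), Gabre (0.721) and Gabrq (0.683), and none of the 15 lay under an interval. Other CpG-rich promoters without one were those of Chrna7 (1.01), Grin2d (0.848), Grik2 (0.836), Slc6a11 (0.815), Gria2 (0.804), Drd1 (0.740), Gria4 (0.662), Chrnb1 (0.631) and Drd2 (0.621). The listed promoter of Grin2d lies inside the annotated gene, whose 5′ end had 45 in NT and 26 in LPS. A sequence count describes these letters and does not show what places EZH2.

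**Figure D5:**
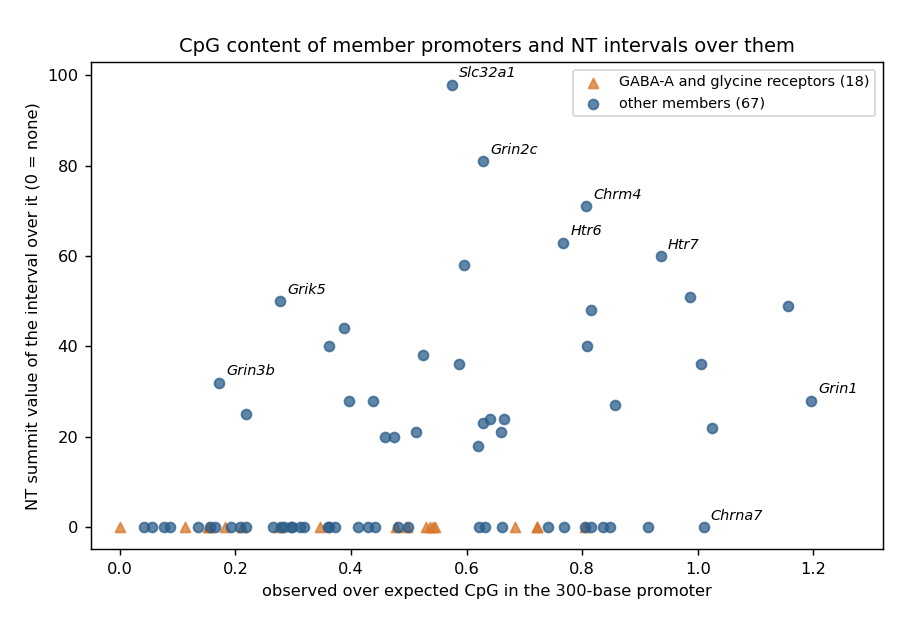
NT summit value of the interval over each of 85 member promoters (y axis, the authors' unit, 0 for none) against observed over expected CpG in its 300 bases (x axis), with triangles for GABA-A and glycine receptor genes and circles for the others. All triangles lie at 0, and promoters with an interval span from Grin3b at 0.172 to Grin1 at 1.20.

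Other genes of neurotransmission, outside the 13 families, were counted in the same way, against the same genome shares of 38.2% in NT and 16.2% in LPS. Of 18 further receptor genes, 13 had intervals in NT and 13 in LPS, with a median NT value of 58. They include the adrenergic receptor genes Adra2a (114 in NT and 52 in LPS), Adrb1 (103 and 51) and Adra2b (102 and 53) and the GABA-B receptor genes Gabbr2 (75 and 34) and Gabbr1 (66 and 23). In contrast to the GABA-A genes, both genes of this G protein-coupled GABA receptor had intervals in NT and LPS. Adra2c (16) and the histamine receptor gene Hrh2 (12) had LPS intervals alone.

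Of 18 genes of transmitter synthesis and breakdown, 6 had intervals in NT and 5 in LPS. Both genes of GABA synthesis were among them, Gad1 with 47 and 27 and Gad2 with 54 and 28, as was the acetylcholinesterase gene Ache with 102 and 46. Chat, which makes acetylcholine, and Slc18a3, which loads it into vesicles, share a locus and had 59 and 31 each. None of the monoamine synthesis genes in the list, Th, Ddc, Dbh, Pnmt, Hdc, Tph1 and Tph2, had an interval. Of 11 further transporter genes 4 had intervals in NT and 3 in LPS, and Slc1a2, a glutamate uptake gene, had 58 and 29.

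Of 14 postsynaptic scaffold genes 7 had intervals in NT and 4 in LPS, with Shank1 at 82 and 40. Among 12 genes of auxiliary receptor subunits the counts were also 7 and 4, with Cnih3 at 93 and 33. For reference, 2 of 6 macrophage marker genes had an NT interval, Mertk with 36 and Spi1 with 23, and none had an LPS interval. Adgre1, Csf1r, Itgam and Cd68 had none in either library. Of 6 neuronal marker genes 3 had intervals in NT and 2 in LPS, with Tubb3 at 56 and 19 and Rbfox3 at 41 and 20. Syn1 had 28 in NT alone, and Map2, Snap25 and Syt1 had none. These lists give occupancy and say nothing of which cells were present.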

How the data were processed

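The deposited file holds BED tracks of intervals and summits for 1 NT and 1 LPS library and a track of active regions, which was not used, 5 tracks in all, per the file headers. BWA, SICER and mm10 are named in the submitters' processing notes, with no version and no role. Aligner settings, input use, duplicate removal, read depth and scaling are not given in the sources used here. The summit values deposited by the authors are whole numbers of unknown unit, and depth is unknown. Positions are printed 1-based.

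Genes came from a RefSeq table of GRCm38.p6 (21887 protein-coding genes), and promoters and strand from a RefSeq promoter table, which matched 85 of the 116 members. Intervals overlapping a window by 1 bp or more were assigned in Python 3.11.15 with pandas 2.3.3. The assignment was tested on simulated data and gave the same genes as bedtools 2.31.1. Wilson intervals used scipy 1.17.1. The members, gene lists and tests were chosen with earlier results of these data known. Genes were named by rule: the Gabrd interval in LPS alone, the highest summit values, widest coverage, extreme ratios, the highest of NT alone and the top 2 of each family. Some members are not reported by name here, the others are given by name or value, and genes outside these parts of the rule were chosen after their values were seen. Alternatives were other windows, stricter interval lists and summits in place of intervals.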

Additional observations from a re-analysis of the deposited data

How the results depend on the processing

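No paired analysis was possible because NT and LPS are single libraries without replicate numbers. Without replicates or depth, the settings below show dependence on processing only. Over 8 summary values and 8 alternatives, 57 recomputations left a count within 1.5 times of its reported value, or a median inside its 95% binomial interval, and 7 did not. With windows at the transcription start only, the count in LPS alone was 0, since Gabrd is not in the promoter table. Keeping only intervals whose summit reached the median of its library left 25 members with an NT interval (21.6%, against 21.3% of all genes). Of these 3 were in NT alone (2.59% of members, against 12.1% of all genes). With the NT list limited to the LPS length, the lowest summit value kept was 27, and not every interval of 27 was kept. Slc6a17, with 27 in NT, lost its NT interval in this way. In that setting 23 members had an NT interval with a median value of 50. An interval in NT alone was left at 1 member (0.862%, against 8.17% of all genes). In LPS alone there were 5 members (4.31%, against 3.75% of all genes). Those 5 included Gabrd, Grm6, Slc6a17 and Slc6a5, so the count of 1 in LPS alone depends on the longer NT list. In that setting 19.8% of members and 20.6% of all genes had an NT interval, and 23.3% and 16.2% an LPS interval. Leaving out summits nearer to another gene, a setting chosen after the data were seen, moved none of the 8 values beyond these limits. By family 4 of 130 counts moved, all of them nicotinic receptor genes with a 5 kb window or Slc6 genes with a 1 kb window.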
